A study of Mus musculus with 8 samples.

Results

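Chromosome 14 of the mouse carries, between 45 and 75 Mb (GRCm38), a run of unrelated genes that stood low together in 2 clones of mouse embryonic stem cells with mutant histone H3.3. The members described here are 52 named genes of that run, out of 16896 genes with a value in at least 1 of 4 deposited tables. They were chosen because the run stood low in these clones, so their values in the clones describe the choice and carry no test. All 52 lie inside the window, and 50 were in all 4 tables. Loxl2 was in 3 tables, and Entpd4 was not analysed here. A wildtype mean of 50 normalized counts or more was reached by 48 members, with Lgals3 and Cryl1 just below it. This minimum is set on wildtype cells, so counts over the 48 members describe those members and support nothing further.

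The libraries were TT-seq, which captures RNA labelled with 4-thiouridine during a short pulse and so reads out current transcription rather than stored message. All 8 libraries came from ES-E14TG2a (E14), a male mouse embryonic stem cell line, and every plate received 500 nM 4-thiouridine for 5 min. The study placed the K122A substitution of H3.3 on the alleles of H3f3a and H3f3b, which both lie on other chromosomes than 14. The dual-targeted genotypes were H3f3a A/A H3f3b WT/A as 2 clones with 1 library each, called the clones below, and H3f3a WT/A H3f3b A/A as 1 library, called the other dual-targeted line. The single-targeted group joined a line with H3f3a A/A H3f3b WT/WT and a line with H3f3a WT/WT H3f3b A/A, with 1 library each. Wildtype cells had 3 biological replicates. Because each mutant line was profiled once, a feature of a mutant group may belong to a line and not to its genotype, and the 2 cannot be told apart. Media with LIF and with LIF plus 2 inhibitors are described in the labels, which do not say which was used.

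Most genes of a diploid cell are read from a maternal and a paternal copy, and the RNA made from a gene tends to follow the number of active copies. A gain or loss of a stretch of chromosome therefore tends to shift all of its genes together, whatever they do. Single genes may depart from the shift where feedback or local regulation holds their output, which is called escape or dosage compensation. Cultured embryonic stem cell lines are known to acquire such changes, but DNA copy number was not measured in these libraries. In bulk RNA, fewer cells that transcribe a gene and less RNA made per cell cannot be told apart.

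Group levels were rebuilt by subtraction from the means of normalized counts in the authors' deposited tables, and each is a single number per group with no error. Wildtype is a mean of 3 libraries, the clones and the single-targeted group means of 2, and the other dual-targeted line is 1 library. The last is 3 times the dual-targeted mean less 2 times the clones' mean, so an error in one shifts the other the opposite way. Levels are normalized counts, not divided by gene length, so they are compared between groups and not between genes. The cells carried the transcripts of their label: all 10 embryonic stem cell markers were measured, at wildtype means of 306 to 4552 normalized counts. Of fibroblast or feeder markers 1 of 7 was measured, Thy1, at 19.6 normalized counts in wildtype, and of endoderm markers 1 of 6, Gata4, at 12.2. Of neural markers 4 of 5 were measured, summing to 443 normalized counts in the clones, 589.7 in the other dual-targeted line, 403 in the single-targeted lines and 472 in wildtype. The mesoderm marker Eomes, 1 of 4, had 37.3, 43.1, 29.0 and 33.2 in the same order. The trophectoderm marker Tfap2c, 1 of 4, had 200.3, 495, 309 and 285, and its part in the members' values was not tested.

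Start regions of 4 members are shown because these genes mark the extremes of the run. Osgep had the lowest ratio of clones to wildtype, and its neighbour Apex1 one of the 3 highest. The pair begins 75 bases apart on opposite strands in the GENCODE annotation. Ajuba had the highest ratio and Ndrg2 the second lowest. Each sequence is from RefSeq (GRCm38.p6) and runs from 250 bases before to 50 bases after the start annotated there. That start differs from the GENCODE start by 0 bases for Osgep, 19 for Apex1, 103 for Ajuba and 154 for Ndrg2. Osgep (chr14:50924844-50925143, minus strand) encodes the enzyme of the KEOPS complex that modifies transfer RNA. Apex1 (chr14:50924699-50924998, plus strand) encodes the main endonuclease for abasic sites in DNA. Ajuba (chr14:54577612-54577911, minus strand) encodes a LIM protein that binds the LATS kinases. Ndrg2 (chr14:51913955-51914254, minus strand) encodes a protein of the N-myc downstream regulated family. Capitals mark, on either strand, the CCAAT box, the GC box (GGGCGG), the TATA box (TATAAA) and the E-box (CACGTG).
Osgep: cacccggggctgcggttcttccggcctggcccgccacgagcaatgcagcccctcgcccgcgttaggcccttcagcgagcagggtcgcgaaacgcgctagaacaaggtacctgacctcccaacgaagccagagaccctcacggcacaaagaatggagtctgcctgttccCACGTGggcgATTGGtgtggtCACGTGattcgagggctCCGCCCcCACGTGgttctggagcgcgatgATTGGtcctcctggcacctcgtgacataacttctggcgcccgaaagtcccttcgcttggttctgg
Apex1: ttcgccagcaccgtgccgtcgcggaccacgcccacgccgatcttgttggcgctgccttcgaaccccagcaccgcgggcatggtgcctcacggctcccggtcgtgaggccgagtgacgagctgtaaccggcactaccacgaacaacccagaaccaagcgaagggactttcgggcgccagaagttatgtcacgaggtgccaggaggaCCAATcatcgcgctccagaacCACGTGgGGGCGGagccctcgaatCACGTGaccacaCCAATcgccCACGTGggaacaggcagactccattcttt
Ajuba: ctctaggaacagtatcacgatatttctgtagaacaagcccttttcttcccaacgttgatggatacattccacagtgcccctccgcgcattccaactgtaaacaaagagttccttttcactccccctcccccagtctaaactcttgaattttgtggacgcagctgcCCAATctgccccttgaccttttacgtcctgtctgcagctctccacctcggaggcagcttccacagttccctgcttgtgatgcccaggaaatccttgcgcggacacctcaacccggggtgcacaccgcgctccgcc
Ndrg2: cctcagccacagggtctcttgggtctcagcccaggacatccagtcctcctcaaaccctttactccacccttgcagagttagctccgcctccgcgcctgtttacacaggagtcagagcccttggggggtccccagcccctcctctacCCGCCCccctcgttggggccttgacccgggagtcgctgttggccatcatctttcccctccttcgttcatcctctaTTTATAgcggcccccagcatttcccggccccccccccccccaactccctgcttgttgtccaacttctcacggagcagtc

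The windows of Osgep and Apex1 share 155 bases, so both hold the same E-boxes, CCAAT boxes and GC box, read from opposite strands. The Ajuba window held a CCAAT box and neither a GC box nor an E-box, and the Ndrg2 window a GC box and a TATA box. Start regions were found for 34 of the 52 members. The CCAAT box was in 18 of these 34, against 37.4% of all 32817 start regions in the table. The GC box was in 19 of 34, against 35.6% of all. The TATA box was in 4 of 34, against 13.6% of all. The E-box, which reads the same on both strands, was in 5 of 34, against 7.15% of all. The matches shared by the Osgep and Apex1 windows enter these counts for both genes. Some start regions lie far from the gene start used for positions, up to 27467 bases for Sucla2. The 32817 start regions were not limited to genes measured here, so they are no matched background, and no difference in share was tested. No match overlapped another in the windows shown. A match describes the letters in the window and says nothing on binding.

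In the clones, the median member stood at 0.474 of wildtype, over 48 members ranging from 0.262 to 1.19. The median gene of the other chromosomes, leaving out 8, 14, Y and the mitochondrial genome, stood at 1.00 of wildtype over 10376 genes. Of the 48 members, 27 lay between 0.4 and 0.6 of wildtype, 12 below 0.4 and 3 at or above 1. Of all 11540 genes with enough counts, 1058 lay between 0.4 and 0.6, 396 below 0.4 and 5483 at or above 1. In the authors' deposited table (DESeq2), 42 of 51 members were called lower in the clones than in wildtype at an adjusted p under 0.05, and 0 were called higher. Among all tested genes that table called 10.3% lower and 9.05% higher. The members were chosen on this contrast, so the count is given only as a description of the list.

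The other dual-targeted line did not share the low level. Its median member stood at 1.03 of wildtype, with a range of 0.442 to 2.51. Of 48 members, 26 were at or above 1, against 5330 of all 11540 genes with enough counts. The median gene of the other chromosomes stood at 0.987 of wildtype in this line. Setting the clones directly against this line gave a median member ratio of 0.478, and all 48 members were below 1. Both levels were rebuilt from deposited means that include wildtype libraries. On other chromosomes the same ratio had a median of 1.02, and 46.3% of all genes with enough counts were below 1. These ratios have no test, because no value per library entered them. Members were chosen for low levels in the clones, and an error that lowers the clones raises this line. The count below 1 is thus not independent of the choice.

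The single-targeted lines lay between. Their median member stood at 0.751 of wildtype, with a range of 0.408 to 1.37. Of 48 members, 45 were below 1, against 51.4% of all genes with enough counts. The median gene of the other chromosomes stood at 1.01 of wildtype in these lines. The value is a mean over 2 lines of different genotype, and whether 1 line or both were low was not tested. The wildtype libraries are the same ones the members were chosen against, and the part of this in the single-targeted values was not tested.

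**Figure D1:**
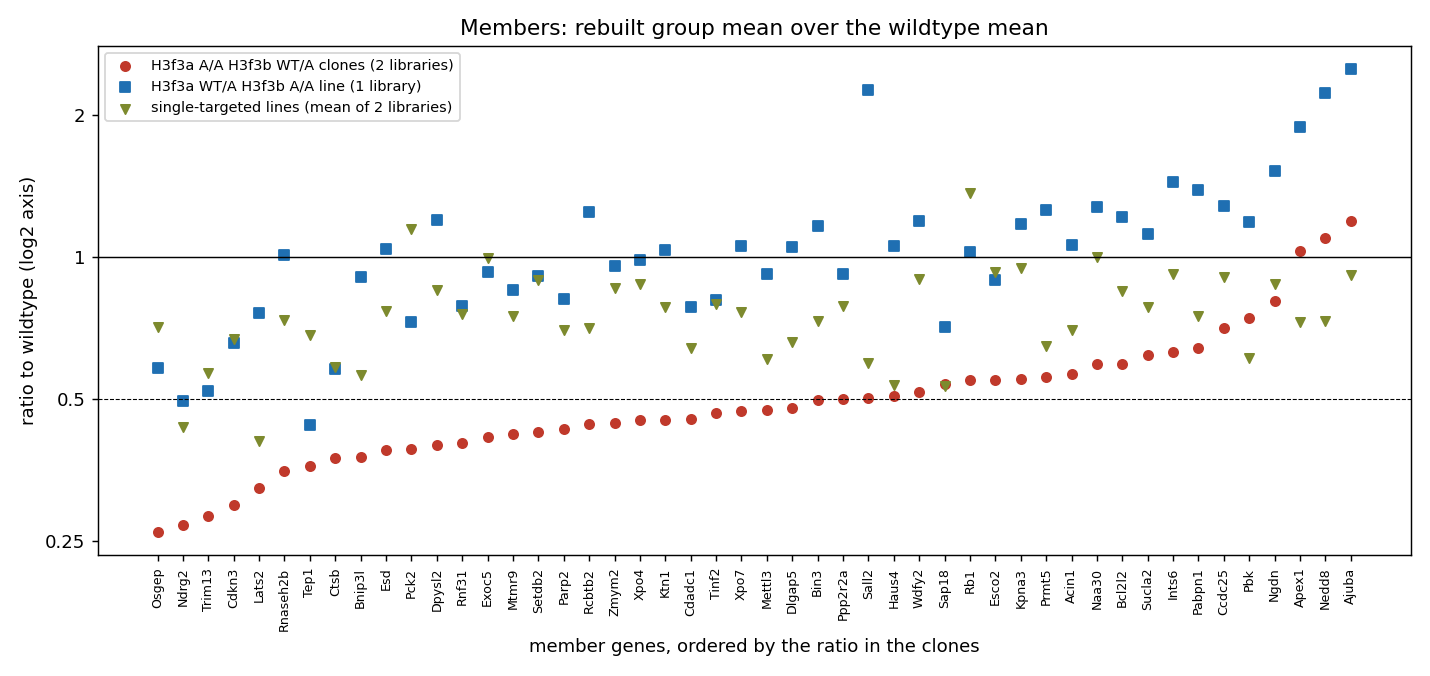
Ratio of the rebuilt group mean to the wildtype mean on a log2 axis for the 48 members with a wildtype mean of 50 normalized counts or more, in order of the ratio in the clones. Circles are the 2 clones, squares the other dual-targeted line and triangles the mean of the 2 single-targeted lines. The solid line marks 1 and the broken line 0.5. The circles run from 0.262 (Osgep) to 1.19 (Ajuba), below the square of every member.

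The comparison of single-targeted lines with wildtype is the only deposited one that holds no clone library, although it shares the wildtype libraries. In the authors' deposited table (DESeq2), 2 of 51 members were lower at an adjusted p under 0.05 and 0 were higher, against 1.47% of all tested genes lower and 1.49% higher. Ndrg2 had a rebuilt mean of 58.7 normalized counts in the clones, 107 in the other dual-targeted line, 94.9 in the single-targeted lines and 217 in wildtype. It was low in every mutant group, and in the authors' deposited table its log2 fold change in single-targeted lines was -1.03 ± 0.33 (SE; DESeq2 adjusted p = 0.00655). Sap18, a subunit of the Sin3 histone deacetylase complex and of the ASAP complex on spliced RNA, had 281, 372, 279 and 523 normalized counts in the clones, the other dual-targeted line, the single-targeted lines and wildtype. Its level was as low in the single-targeted lines as in the clones, with a log2 fold change of -0.80 ± 0.25 (SE) in single-targeted lines in the authors' deposited table (DESeq2 adjusted p = 0.00522). Sap18 overlaps Ska3 on the opposite strand, and whether reads were assigned by strand is not stated in the sources used here, so the members that overlap another gene are uncertain.

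Below the threshold, the members leaned the same way. In the table deposited by the authors, 48 of 51 members (94.1%) had a single-targeted log2 fold change below 0, against 48.7% of all genes. The median was -0.12 for members and 0.00 for all genes, on a scale of fold changes that are shrunken towards 0. At an unadjusted p under 0.05, 15 of 51 members were lower and 0 higher, while 6.5% of all genes were lower. The 13 of these that missed the adjusted threshold were Trim13, Lats2, Tep1, Ctsb, Bnip3l, Parp2, Cdadc1, Mettl3, Dlgap5, Haus4, Prmt5, Acin1 and Loxl2. Rb1 and Pck2 had the highest single-targeted ratios, 1.37 and 1.15 of wildtype, with deposited log2 fold changes of 0.12 ± 0.20 and 0.06 ± 0.16 (SE) in the authors' deposited table, neither called.

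A further pair of deposited comparisons mixes the clones with the other dual-targeted line. For all 3 dual-targeted lines against wildtype, the authors' deposited table (DESeq2, adjusted p under 0.05) called 18 of 51 members lower, against 10.1% of all tested genes, with a median member log2 fold change of -0.44. For dual-targeted against single-targeted lines it called 2 of 50 members lower, against 2.69% of all tested genes, with a median of -0.04. The 2 were Tep1 at -0.62 ± 0.29 and Pck2 at -0.95 ± 0.37 (SE). Both comparisons hold the clones, so these counts are descriptions too. Tep1, a protein of the vault particle that also associates with telomerase, had 188, 229, 356 and 519 normalized counts in the clones, the other dual-targeted line, the single-targeted lines and wildtype. It was the member whose clones stood closest to the other dual-targeted line, at 0.818 of it. Pck2, the mitochondrial phosphoenolpyruvate carboxykinase, had 350.1, 649, 1025 and 890.2 normalized counts in the same order. Its single-targeted level was above wildtype, and both dual-targeted genotypes were below wildtype.

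**Figure D2:**
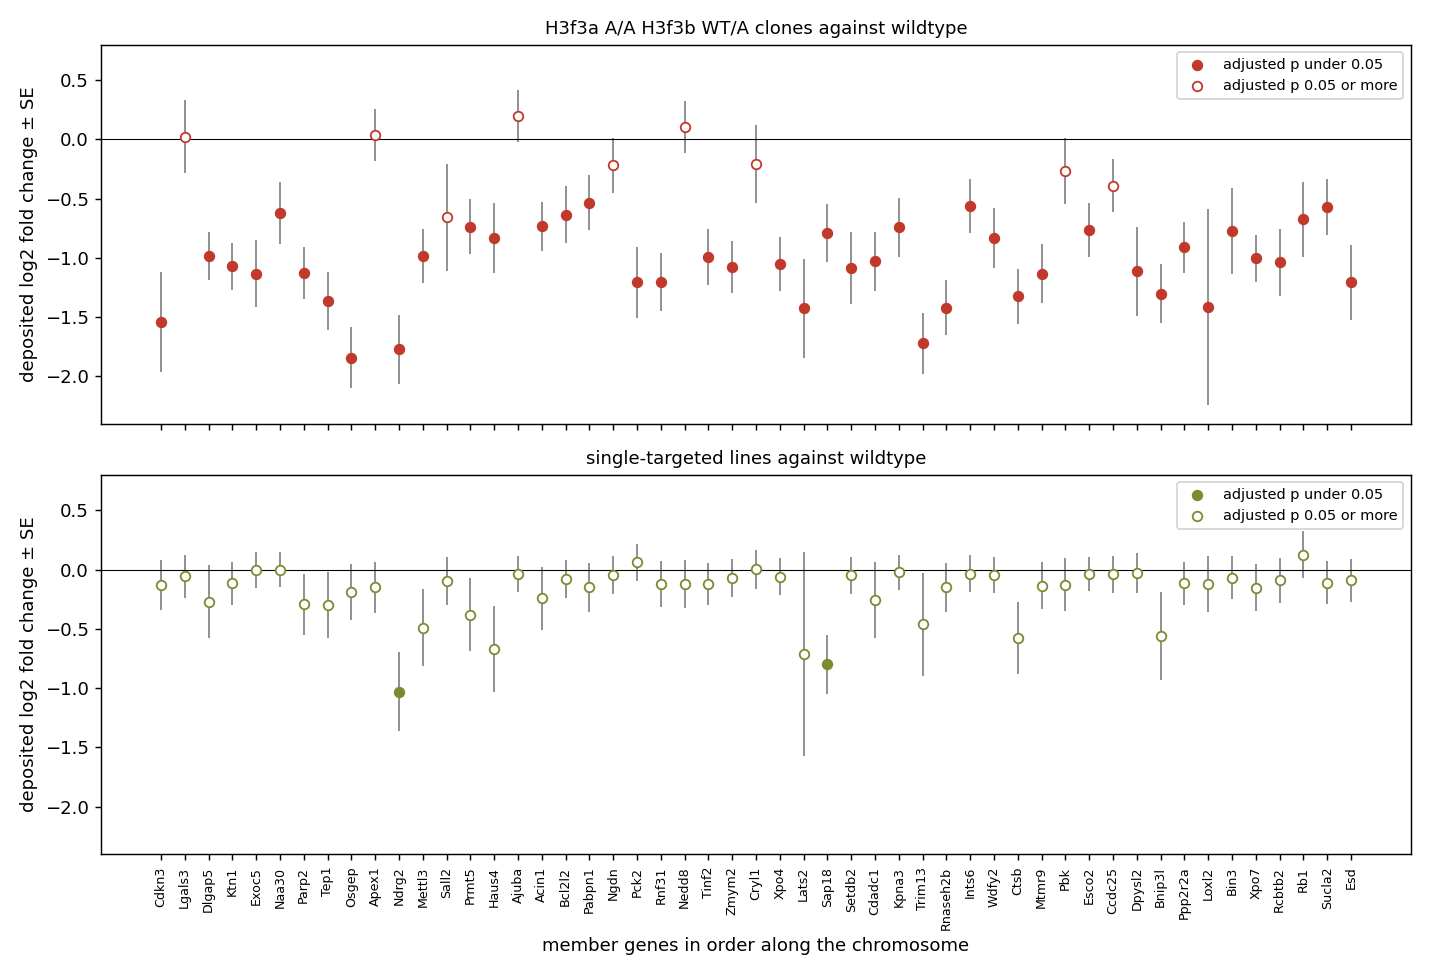
Log2 fold change with its standard error for 51 members in order along chromosome 14, from the authors' deposited tables, for the clones against wildtype (upper) and the single-targeted lines against wildtype (lower). Filled points passed an adjusted p under 0.05. The upper panel holds 42 filled points below 0 and chose the members, while the lower holds 2, Ndrg2 and Sap18.

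Along the chromosome the low level was even. In 5 Mb steps from 45 to 75 Mb, with all measured genes of 50 or more wildtype counts, the median ratio to wildtype ran from 0.420 to 0.554 in the clones over the 6 steps. The same steps ran from 0.837 to 1.06 in the other dual-targeted line and from 0.725 to 0.794 in the single-targeted lines. No step of the clones reached a step of either other group. The 154 genes of the window that are not members had medians of 0.508 in the clones, 0.954 in the other dual-targeted line and 0.762 in the single-targeted lines. The window itself was chosen for standing low in the clones. Its steps and its non-members therefore describe that choice too, and carry no test of it. Over the whole window, with members and non-members together, 189 of 202 genes were below wildtype in the clones and 182 of 202 in the single-targeted lines. Of all genes with enough counts, 52.5% and 51.4% were below wildtype in these 2 groups.

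The low run was not bounded by the listed window at its upper end. Between 75 and 80 Mb, 26 genes had medians of 0.607 in the clones, 1.05 in the other dual-targeted line and 0.795 in the single-targeted lines, with a clones to line ratio of 0.549. After 80 Mb, 50 genes had medians of 0.866, 0.878 and 0.954 in the same order, and a clones to line ratio of 0.947. Before 45 Mb, 113 genes had medians of 0.931, 0.967 and 1.01, with a clones to line ratio of 1.02. Chromosome 8 was different from the run: its 658 genes had medians of 0.739, 0.726 and 0.726, so that all 3 mutant groups stood low together there.

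Single genes at the ends of the window varied too much to place the change. The last gene with enough counts before 45 Mb was Tspan14, a tetraspanin at 40.9 Mb, at 0.643 of wildtype in the clones, 0.725 in the other dual-targeted line and 0.997 in the single-targeted lines. Before it, Ghitm stood at 1.35, 1.10 and 1.66 and Cdhr1 at 0.171, 0.463 and 0.449. The first genes inside were Txndc16 at 0.326, 0.413 and 0.661 in the same order, Gpr137c at 0.399, 0.709 and 1.00, and Ero1l at 0.440, 0.862 and 0.752. Txndc16 was thus low in both dual-targeted genotypes. The last inside 75 Mb were Sucla2 at 0.622, 1.12 and 0.786, Esd at 0.390, 1.04 and 0.769, and Lrch1 at 0.316, 0.536 and 0.849. The first beyond were Zc3h13 at 0.576, 1.04 and 0.725, Cog3 at 0.541, 0.866 and 0.746, and Slc25a30 at 0.338, 0.606 and 0.694. The values were alike on both sides of 75 Mb. The last measured gene before 80 Mb, Sugt1, stood at 0.446, 0.975 and 0.791 in the clones, the other dual-targeted line and the single-targeted lines, and the next, Diaph3 at 86.7 Mb, at 0.735, 0.882 and 0.911. No measured gene with enough counts lies between them.

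**Figure D3:**
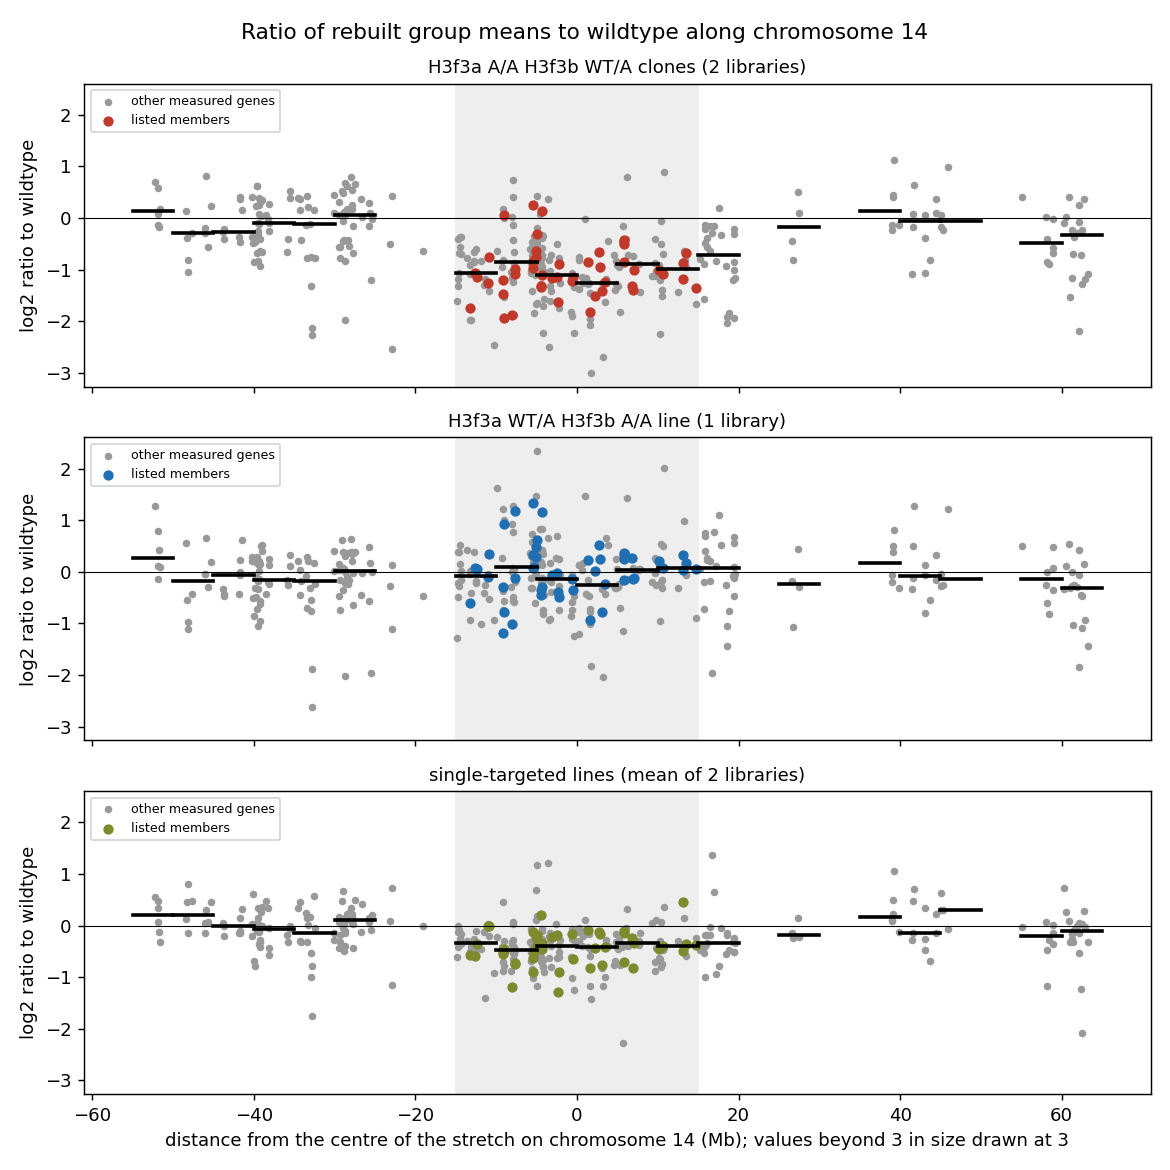
Log2 ratio of rebuilt group means to wildtype for genes of chromosome 14, by distance in Mb from the centre of the 45 to 75 Mb window (shaded). Panels are the clones, the other dual-targeted line and the single-targeted lines. Coloured points are members, grey points other measured genes, and black bars medians of 5 Mb steps. In the window the bars lie at ratios of 0.420 to 0.554 in the clones, 0.837 to 1.06 in the other line and 0.725 to 0.794 in the single-targeted lines.

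Most members at the ends of the list were lowest in the clones. At the lower end Cdkn3, a phosphatase of cyclin-dependent kinases, had 24.0, 53.1, 54.1 and 80.5 normalized counts in the clones, the other dual-targeted line, the single-targeted lines and wildtype. Lgals3, which encodes galectin-3, had 38.6, 65.3, 25.5 and 37.5, the clones standing at wildtype. Dlgap5, a protein of the mitotic spindle, had 552, 1212, 765 and 1154. At the upper end Sucla2, a subunit of succinyl-CoA synthetase, had 224, 403, 284 and 361, and Esd, esterase D, had 58.9, 157, 116 and 151. Of these 5 genes, 4 were lowest in the clones and 1, Lgals3, in the single-targeted lines.

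Evenness depended on which group the clones were set against. The median absolute deviation of members' log2 ratios was 0.24 over wildtype and 0.15 over the other dual-targeted line. The share of members between 0.4 and 0.6 was 56.3% (27 of 48) over wildtype and 79.2% (38 of 48) over the other dual-targeted line. Of all genes with enough counts, 9.17% lay there over wildtype and 3.68% over the other dual-targeted line. Genes of other chromosomes also spread less over that line, with deviations of 0.34 over wildtype and 0.18 over the line, so the narrowing is no property of the run. Members of the single-targeted lines had a deviation of 0.22 over wildtype, against 0.20 on other chromosomes.

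**Figure D4:**
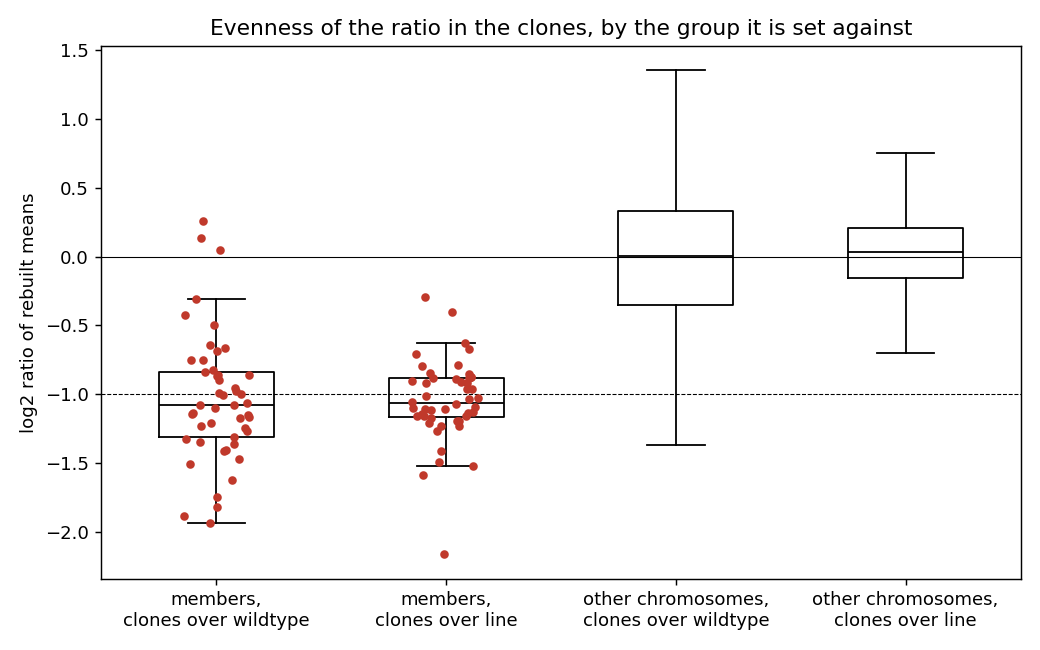
Log2 ratios of rebuilt means for the 48 members (points and boxes) and for 10376 genes of other chromosomes (boxes), with the clones set over wildtype or over the other dual-targeted line. Boxes span the quartiles with the median inside, and whiskers reach the last value within 1.5 box lengths. Members have medians of -1.08 over wildtype and -1.06 over the line, with median absolute deviations of 0.24 and 0.15.

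The 6 members with the highest ratios in the clones were above wildtype in the other dual-targeted line. Ajuba had 1198 normalized counts in the clones, 2515 in the other dual-targeted line, 920.5 in the single-targeted lines and 1004 in wildtype. Nedd8, a ubiquitin-like modifier that activates cullin ligases, had 265, 538, 177 and 241. Apex1 had 477, 873, 337 and 462. For these 3 genes the clones matched or passed wildtype, and stood at 0.476, 0.492 and 0.547 of the other dual-targeted line. Over all 48 members that ratio had a median of 0.478 and an upper quartile of 0.543. Ratios to wildtype in both groups share 1 wildtype mean, so a low wildtype value would raise both. Ngdn, neuroguidin, a regulator of translation, had 170.5, 322, 185 and 211 normalized counts. Pbk, a mitotic kinase, had 71.1, 113, 58.4 and 95.4, and Ccdc25, a coiled-coil membrane protein, had 520.1, 941, 667 and 733. Apex1 and Nedd8 overlap Pip4p1 and Gmpr2 on the opposite strand. None of these 6 members was called in the clones in the authors' deposited table, and all 6 lay between 0.476 and 0.627 of the other dual-targeted line.

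Most of the lowest members stood below wildtype in the other mutant groups as well. Osgep had 101 normalized counts in the clones, 224 in the other dual-targeted line, 273 in the single-targeted lines and 384 in wildtype. Trim13, a ubiquitin ligase of the endoplasmic reticulum, had 82.6, 152, 166 and 291 in the same order, and overlaps Dleu2 on the opposite strand. Lats2, a kinase of the Hippo pathway, had 30.0, 70.5, 37.6 and 92.3. Osgep, Ndrg2, Trim13 and Cdkn3 stood at 0.582, 0.496, 0.521 and 0.660 of wildtype in the other dual-targeted line, under its median of 1.03 for members. These genes were picked for low ratios to wildtype, and all groups share 1 wildtype mean. A high wildtype value would thus lower the ratios of every group. Rnaseh2b, a subunit of ribonuclease H2, was an exception, with 203 normalized counts in the clones, 582 in the other dual-targeted line, 425 in the single-targeted lines and 576 in wildtype. Relative to the other dual-targeted line, the 6 lowest members stood at 0.348 (Rnaseh2b) to 0.547 (Ndrg2).

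Some genes with start sites close together on opposite strands differed widely against wildtype. Osgep and Apex1 stood at 0.262 and 1.03 of wildtype in the clones, and at 0.582 and 1.89 in the other dual-targeted line. Relative to that line the clones had 0.449 of its Osgep and 0.547 of its Apex1. Parp2, which adds ADP-ribose at DNA breaks, and its neighbour Ccnb1ip1, 109 bases away, stood at 0.432 and 1.13 of wildtype in the clones and at 0.528 and 0.489 of the other dual-targeted line. In these 2 pairs the gap between neighbours was smaller against the other dual-targeted line than against wildtype. In the other 2 pairs within 1000 bases it was not. Parp2 and Rpph1, the RNA of ribonuclease P, begin 74 bases apart and stood at 0.432 and 0.570 of wildtype in the clones and at 0.528 and 0.741 of the other dual-targeted line. Setdb2 and Cab39l, 88 bases apart, stood at 0.426 and 0.432 of wildtype and at 0.468 and 0.453 of the other dual-targeted line.

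Neither level nor length ordered the members strongly. Split into 3 sets of 16 by wildtype level, members had median ratios of 0.470, 0.443 and 0.525 in the clones, from the lowest level to the highest. Split by gene length they had 0.548, 0.466 and 0.452, from the shortest to the longest. Across the 48 members, which share the same libraries, Spearman's rho with the ratio in the clones was 0.20 for wildtype level, -0.17 for length and 0.05 for position. For the single-targeted ratio rho with length was 0.31. Of the 52 members, 18 overlap another measured gene, and the 30 others with enough counts had medians of 0.489 in the clones and 0.777 in the single-targeted lines.

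Members were grouped into 7 roles. The 8 members of cell division and growth control had a median of 0.529 of wildtype in the clones, 1.04 in the other dual-targeted line and 0.667 in the single-targeted lines, and 6 of 8 were called lower in the clones in the authors' deposited table, against 10.3% of all tested genes, on the contrast that chose the members. Rb1, the retinoblastoma protein that restrains E2F factors, had 85.9, 160.4, 214 and 156 normalized counts in the clones, the other dual-targeted line, the single-targeted lines and wildtype. It was the member with the highest ratio in the single-targeted lines, and Rb1 overlaps Rcbtb2 and Lpar6 on the opposite strand. Haus4, a subunit of the augmin complex of the spindle, had 126, 262, 132 and 247 normalized counts. Its single-targeted level was close to that of the clones, with a deposited log2 fold change of -0.67 ± 0.36 (SE) in the authors' table (DESeq2 adjusted p = 0.0714). Esco2, the acetyltransferase of cohesin, stood at 0.550, 0.897 and 0.931 of wildtype in the clones, the other dual-targeted line and the single-targeted lines.

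The 5 members of DNA repair and telomeres had medians of 0.432, 0.818 and 0.730 of wildtype in the clones, the other dual-targeted line and the single-targeted lines, with 4 of 5 called lower in the clones (10.3% of all tested genes), again on the contrast that chose them. Parp2 had 290.0, 549, 470.4 and 672 normalized counts in the clones, the other dual-targeted line, the single-targeted lines and wildtype. Tinf2, a shelterin subunit at telomeres, had 217, 376, 369 and 464. Apex1 was the one of the 5 not called lower in the clones.

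The 11 members of transcription, chromatin and RNA processing had medians of 0.538, 1.06 and 0.712 in the same order, with 9 of 11 called lower in the clones (10.3% of all tested genes), on that same contrast. Mettl3, the methyltransferase of N6-methyladenosine, had 285, 555, 366 and 602 normalized counts in the clones, the other dual-targeted line, the single-targeted lines and wildtype. Prmt5, which makes symmetric dimethylarginine on histones and splicing proteins, had 437, 987, 508 and 783. Ints6, a subunit of the Integrator complex, had 1147, 2624, 1681 and 1821. Prmt5 and Ints6 thus stood above wildtype in the other dual-targeted line, and Mettl3 below it. Sall2, a zinc finger factor, had 27.1, 121, 32.0 and 53.7 normalized counts and the lowest ratio of clones to the other dual-targeted line, 0.224, at low counts. Acin1, Pabpn1, Setdb2 and Zmym2 stood at 0.566, 0.641, 0.426 and 0.446 of wildtype in the clones.

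The 7 transport members, Ktn1, Exoc5, Xpo4, Xpo7, Kpna3, Bin3 and Wdfy2, had the narrowest range of the 7 roles in the clones. Their ratios ran from 0.417 to 0.552 in the clones, from 0.930 to 1.19 in the other dual-targeted line and from 0.733 to 0.995 in the single-targeted lines, and 7 of 7 were called lower in the clones (10.3% of all tested genes), on that same contrast. Xpo4 and Xpo7 carry cargo out of the nucleus and Kpna3 carries it in, while Exoc5 belongs to the exocyst that tethers vesicles. The 6 members of protein modification, of which Naa30, Rnf31, Nedd8, Trim13 and Ctsb had enough counts, had medians of 0.403, 0.787 and 0.733 in the clones, the other dual-targeted line and the single-targeted lines. Naa30, the catalytic subunit of the NatC acetyltransferase, stood at 0.594, 1.28 and 1.00 of wildtype. Ctsb, the lysosomal protease cathepsin B, stood at 0.376, 0.580 and 0.586 of wildtype, low in all 3 mutant groups.

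Metabolic enzymes with enough counts, Pck2, Sucla2, Esd and Cdadc1, had medians of 0.424, 0.911 and 0.777 in the same order. The 8 measured members of survival, mitophagy and signalling had medians of 0.433, 1.06 and 0.769. Among them Bnip3l, a receptor for the removal of mitochondria, stood at 0.378, 0.910 and 0.564 of wildtype, and Bcl2l2, an inhibitor of apoptosis, at 0.595, 1.22 and 0.847. Ppp2r2a, a regulatory subunit of protein phosphatase 2A, stood at 0.500, 0.922 and 0.789, and Mtmr9, Dpysl2 and Rcbtb2 at 0.423, 0.40 and 0.443 in the clones. Across the 7 roles the median in the clones thus ran from 0.403 to 0.538 of wildtype.

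Partner and paralogue genes on other chromosomes did not share the low level. The list held 62 genes, such as the other Integrator, exocyst, augmin, NatC and shelterin subunits. Their medians were 1.05 of wildtype in the clones, 0.980 in the other dual-targeted line and 0.991 in the single-targeted lines. In the clones the authors' deposited table (DESeq2, adjusted p under 0.05) called 3 of 62 lower and 4 higher, against the 10.3% and 9.05% of all genes. Naa38, the small subunit of NatC, was higher at a log2 fold change of 1.08 ± 0.43 (SE), at a wildtype mean of only 30.0 normalized counts. Wdr77, the cofactor of PRMT5, was higher at 0.63 ± 0.23, Ints12 at 0.64 ± 0.23 and Haus3 at 0.51 ± 0.23 in the authors' deposited table. Rbl1, the RB1 paralogue p107, was lower at -0.73 ± 0.24, as were Nae1 and Terf2 of chromosome 8 at -0.50 ± 0.21 and -0.53 ± 0.21 in the authors' deposited table. In the single-targeted lines 3 of 62 were called lower and 0 higher, against 1.47% and 1.49% of all genes: Bnip3, the paralogue of Bnip3l, at -0.93 ± 0.35, and Rnaseh2a and Exoc8 of chromosome 8 at -0.76 ± 0.26 and -0.61 ± 0.25 in the authors' deposited table. In the clones neither count exceeded the share of all genes, and no count of this list was tested against it.

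Genes in the pathways of 2 members, RB1 and LATS2, were read from 2 lists. The 30 E2F targets, which RB1 holds in check, had medians of 1.10 of wildtype in the clones, 0.989 in the other dual-targeted line and 0.858 in the single-targeted lines, where all genes had 0.977, 0.973 and 0.991. In the clones the authors' deposited table (DESeq2, adjusted p under 0.05) called 4 higher and 1 lower, against 9.05% and 10.3% of all genes. These were E2f2 at a log2 fold change of 0.94 ± 0.24, Ccne1 at 0.89 ± 0.23, Tk1 at 0.93 ± 0.26 and Rfc4 at 0.73 ± 0.26, and lower Chaf1b at -0.49 ± 0.20 (SE). In the single-targeted lines 0 were called higher and 2 lower, against 1.49% and 1.47% of all genes. These were E2f1 at -0.61 ± 0.27 and Mcm5, of chromosome 8, at -0.61 ± 0.20 in the authors' deposited table. These counts are small and were not tested against the shares of all genes.

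The second list was of the YAP and TAZ pathway, which LATS2 restrains. Beside targets it held Yap1, Wwtr1, Tead1, Tead2 and Tead4, so its medians and counts are not of targets alone. Its medians were 0.976 of wildtype in the clones, 1.12 in the other dual-targeted line and 1.13 in the single-targeted lines, over 14 genes with enough counts. In the clones the authors' deposited table (DESeq2, adjusted p under 0.05) called 5 of 15 higher and 1 lower, against 9.05% and 10.3% of all genes, with a median log2 fold change of 0.00 over the 15. Higher were Ccn1 at 2.26 ± 0.39, Ptpn14 at 1.21 ± 0.22, F3 at 1.07 ± 0.34, Amotl2 at 1.05 ± 0.26 and Ccn2 at 0.97 ± 0.31, and lower was Axl at -0.88 ± 0.46 (SE). In the single-targeted lines 2 of 15 were called higher and 0 lower, against 1.49% and 1.47% of all genes, Ccn1 at 1.87 ± 0.41 and Ptpn14 at 1.18 ± 0.23 in the authors' deposited table. Ccn1 had 172, 477, 135 and 31.8 normalized counts in the clones, the other dual-targeted line, the single-targeted lines and wildtype, and Ptpn14 had 717, 973, 716 and 299.7. Both genes were highest in the other dual-targeted line, which is 1 library. Lats2 stood at 0.325 of wildtype in the clones, 0.764 in the other dual-targeted line and 0.408 in the single-targeted lines. The part of Lats2 or Rb1 in these values was not tested. The targets named here were singled out after their values were seen.

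Among genes of the window outside the list, the highest ratios in the clones belonged to Dok2, Ptk2b and Gm49256, at 1.86, 1.73 and 1.67 of wildtype. Dok2, an adaptor of tyrosine kinase signalling, had 102, 222, 70.7 and 54.8 normalized counts in the clones, the other dual-targeted line, the single-targeted lines and wildtype. Ptk2b, a focal adhesion kinase relative, had 155, 241, 111 and 89.4, and the long noncoding RNA Gm49256 had 84.1, 122, 34.9 and 50.3. As with Ajuba, Nedd8 and Apex1, all 3 were higher still in the other dual-targeted line, with clones at 0.459, 0.640 and 0.690 of it. Of the 202 measured genes of the window, 13 stood at or above wildtype in the clones, while 4 stood at or above the other dual-targeted line. Of all 11540 genes with enough counts, 5483 and 6193 did so. The lowest ratios outside the list, looked up after the values were seen, belonged to Gm37472, Neil2 and Parp4, at 0.0912, 0.154 and 0.176 of wildtype in the clones. They stood at 0.281, 0.243 and 0.526 in the other dual-targeted line and at 0.373, 0.446 and 0.651 in the single-targeted lines. Neil2, a DNA glycosylase of base excision repair, was thus low in every mutant group, with a single-targeted log2 fold change of -1.07 ± 0.25 (SE) in the authors' deposited table (DESeq2 adjusted p = 0.000176).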

How the data were processed

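TT-seq libraries were processed by the submitters, whose processing notes list deepTools, DESeq2, featureCounts, SAMtools and STAR, and as builds GRCm38.p6 and mm10, without versions. The deposited files used were 4 tables of the authors' comparisons, each normalized and fitted separately. The first value column is a signal: the normalized count averaged by the authors across both groups' libraries, per the file headers. The log2 fold changes and standard errors were deposited by the authors and are read as shrunken, since in 100% of called genes their ratio was smaller than the z of the p. P-values, raw and adjusted over each table, are those the authors deposited. No value per library entered, so depth per library is unknown and precision comes only from the authors' standard errors.

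Means of wildtype, single-targeted and dual-targeted lines, the clones and the other dual-targeted line followed by subtraction from the 4 means and the library numbers. Scales of 1.06, 0.984 and 0.957 for 3 of the tables set the median gene of each group equal to wildtype. For all called genes checked (100% of 2463, 2690, 883 and 385) the rebuilt means had the sign of the fold change, positive meaning higher in the mutant group, or in dual-targeted over single-targeted lines. No scale was fitted to the other dual-targeted line itself. Its median log2 ratio to wildtype was -0.02 with no minimum count and -0.04 over genes with a wildtype mean of 50 or more. Both values follow largely from the scales set on the dual-targeted and the clones' medians, so neither is a check of those scales. The rebuilt mean of this line came out at or below a count of 0 for 2 of 15571 genes. The code was tested on simulated data. Genes were called at an adjusted p under 0.05. Medians use genes with a wildtype mean of 50 or more.

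Positions came from the GENCODE mouse annotation, release 21, which held about 98.7% of the symbols. Start regions came from RefSeq tables of GRCm38.p6. Members, gene lists and tests were chosen with earlier results of these data known. Genes given in every group were the 6 lowest and 6 highest members by the clones' ratio, those called in single-targeted lines, the 3 nearest each end and 8 with well described roles. Other genes named were the 3 nearest to each side of each end, the 3 highest outside the list and called partners. Software was Python 3.11.15 with pandas 2.3.3, numpy 2.4.6 and matplotlib 3.10.9.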

Additional observations from a re-analysis of the deposited data

How the results depend on the processing

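Of 48 alternatives computed, 42 left counts and the spread within 1.5 times and medians within the members' median deposited standard error. That error was 0.25 for the clones and 0.20 for the single-targeted lines. For the other dual-targeted line it was 0.27, from dual-targeted lines against wildtype. The median member log2 ratio in the clones was -1.08 and ran from -1.13 with scales set without chromosomes 8, 14 and Y to -0.98 by the deposited fold changes. The 6 others moved. For dual-targeted lines against wildtype, an adjusted p under 0.01 called 11 members lower in place of 18. For dual-targeted against single-targeted lines it called 0 in place of 2, and adjustment over every gene with a p called 1, while 4 were lower at an unadjusted p under 0.05 (authors' DESeq2). For single-targeted lines against wildtype, an adjusted p under 0.1 called 4 in place of 2, adding Ctsb and Haus4. The median of the other dual-targeted line, -0.02 at a wildtype mean of 200 or more, was -0.29 with no rescaling of the tables, in place of 0.04, where the median of all genes was -0.50, so members stood 0.21 above all genes there and 0.08 above them after scaling. The single-targeted median was -0.12 by the deposited fold changes in place of -0.41 by rebuilt means, and those fold changes are shrunken. No paired analysis was possible because no value per library was used. Leaving out each replicate was not run for the same reason. The clones and the other dual-targeted line are given separately in its place. Depth per library is unknown, rebuilt means carry no error, and members at low counts, such as Sall2, Lgals3 and Loxl2, are the least certain.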
